A study of Trametes elegans with 15 samples.

Results

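Crystalline cellulose was compared with maltose as the growth substrate of the white-rot fungus *Trametes elegans* (*Artolenzites elegans* in the sample titles), strain BRFM 1663. The comparison was the deposited cellulose level minus the deposited maltose level of each gene, taken over all 949 of the 949 genes listed and including the genes at a level of 13 or more. It used 6 of the 15 mycelium samples of the study, which had 3 samples on each of 5 media. Wheat straw, pine and aspen were the other media, each with 15 g/l of the solid. Straw and pine media also held 2.5 g/l of maltose, and the amount in the aspen medium could not be read from the label. The cellulose cultures held 15 g/l of Avicel, a microcrystalline cellulose, together with 2.5 g/l of maltose. The maltose cultures, the control medium, held 20 g/l of maltose and no solid. All other media components were shared, and every culture was shaken for 3 days at 30 °C. Because both the solid and the amount of maltose differed, their parts in any difference below cannot be told apart. Whether the 3 samples of a medium came from 3 flasks is not recorded in the labels, and each p-value below is therefore relative to a library spread that could be technical only. In bulk mycelium, less RNA per cell and fewer expressing cells cannot be told apart.

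White-rot fungi are wood-decaying basidiomycetes that can degrade lignin as well as the polysaccharides of the plant cell wall. Crystalline cellulose is an insoluble polymer of glucose, opened up outside the cell by secreted enzymes such as cellobiohydrolases, endoglucanases, β-glucosidases and lytic polysaccharide monooxygenases. Maltose is a soluble sugar made of glucose units that needs no such attack on a solid. In many filamentous fungi the genes of the cellulose-degrading enzymes are weakly transcribed on readily used sugars. The deposited table identifies genes by number and pairs no number with a gene name, so no function is assigned to any gene here.

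A level is log2(normalised read count + 1), and a difference of 1 is a 2-fold change in count plus 1, which understates the fold of genes with few reads. The table gives 1 level per gene and medium. The decimals of the levels allowed whole reads to be recovered for the 3 libraries behind a cellulose or maltose value. Within each medium these are called a, b and c, from the smallest scaling factor to the largest, and they carry no replicate number. Both media were recovered for 803 genes, which were tested. The other 146 were described by their deposited levels alone, and comprised 114 genes at 13 or more on either medium and 32 with several possible read sets. Reads over the recovered genes were 835226, 856606 and 793132 in cellulose libraries a, b and c, and 609066, 681245 and 643758 in maltose libraries a, b and c. Over the 774 genes recovered in all libraries, cellulose libraries held 586904 to 646579 reads and maltose libraries 486355 to 539840.

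Genes that stood higher on cellulose outnumbered genes that stood lower, and their differences were larger. By deposited level, 268 genes stood higher on cellulose by 1 or more (28.2% of the 949 listed) and 116 stood lower by 1 or more (12.2%). The median of these differences was 2.20 for the higher genes and -1.62 for the lower ones. Among tested genes, 223 rose on cellulose (27.8% of 803) and 91 fell (11.3%), together 39.1%, by limma's moderated test with a Benjamini-Hochberg adjusted p under 0.05 and an absolute difference of at least 1. The median difference was 2.11 among the genes that rose and -1.71 among those that fell, against 0.23 over all tested genes, with a median SE of 0.16. The standard errors of these called genes ran from 0.08 to 0.77.

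This excess of higher genes depended on how the media were scaled. The median level of the listed genes was 8.86 on cellulose and 8.10 on maltose, a shift of 0.76. Relative to that shift, with each medium centred on its median, 173 genes stood higher by 1 or more and 306 lower, so that 36.1% of the differing genes were higher, against 69.8% as deposited. Quantile normalisation gave 43.9% higher. Among tested genes, 71.0% of the calls were higher as deposited, 42.6% with each library centred on its median and 46.4% after quantile normalisation. Centring on the median difference, a shift of 0.22, gave 241 genes higher and 160 lower by deposited level, and centring each library in that way gave 206 calls higher and 119 lower. The differences of the listed genes were most densely packed near 0.09, with 89 genes within a window of 0.2 around it. How the listed genes were chosen from the genome is not stated, and which scaling is right for them was not tested.

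**Figure D1:**
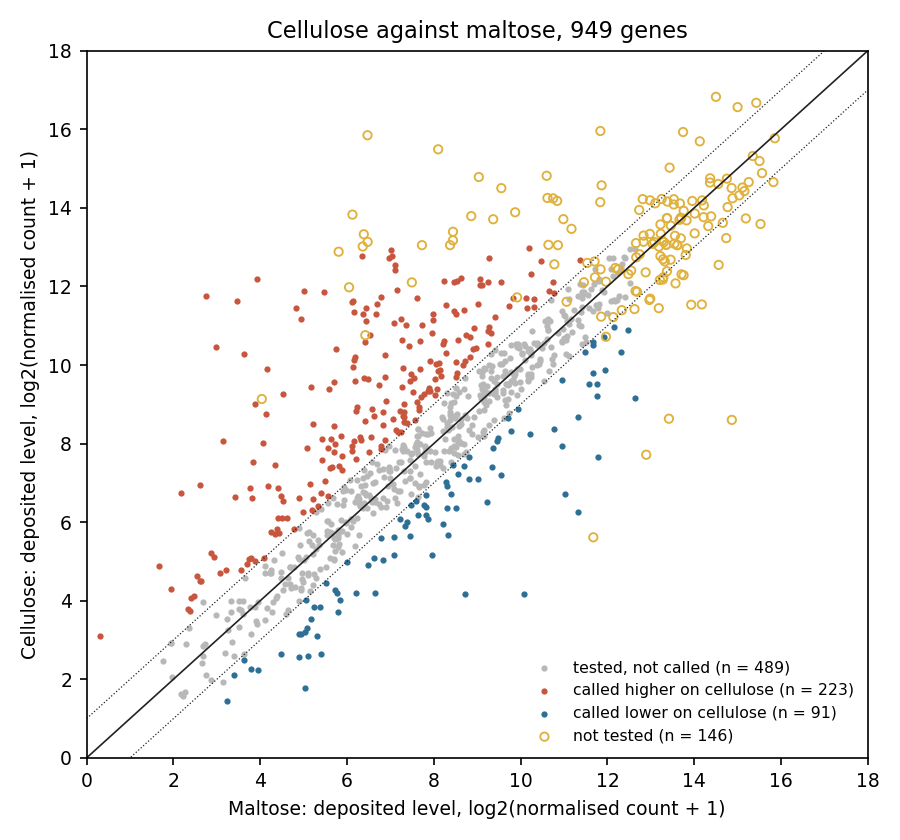
Deposited level on cellulose (vertical axis) against that on maltose (horizontal axis), both as log2(normalised count + 1), 1 point per gene; the solid line marks equal levels, the dotted lines a difference of 1 either way, and colours the limma call. The 223 genes that rose reach up to 9.03 above the line, with a median of 2.11, and the 91 that fell lie below it with a median difference of -1.71.

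The positive side of the distribution had the longer tail. Differences ran from -6.26 to 9.38, with quartiles at -0.46 and 1.27 and with 5% and 95% points at -1.80 and 4.59. At a difference of 2 or more, 154 genes stood higher and 34 lower, and at 3 or more 93 stood higher and 12 lower. At 4 or more, a 16-fold change, 60 genes stood higher (6.32%) and 9 lower (0.948%). At 6 or more, 17 genes stood higher and 2 lower. The scatter of cellulose against maltose levels shows this asymmetry as a cloud of points far above the line of equality.

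The libraries of the 2 media stayed apart for most tested genes. All 3 cellulose libraries lay above all 3 maltose libraries for 366 tested genes (45.6%) and below them for 231 (28.8%), and 206 overlapped. Of the 223 genes that rose, 221 had non-overlapping libraries, as did 91 of the 91 that fell. The calls were made on these same libraries at a difference of 1 or more, so this lack of overlap is largely built in. A further 133 genes were higher and 118 lower with an adjusted p under 0.05 by limma but a difference under 1. These counts and those of the separate libraries are on the deposited scaling, and were not repeated under another scaling. Only 2 tested genes differed by 1 or more without passing the test, 1 in each direction, with a mean level of at most 3.92 and adjusted p-values by limma of 0.0511 and 0.126.

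The largest difference belonged to gene 802227, which stood at 15.85 on cellulose, the sixth-highest level there, and at 6.47 on maltose, where it ranked 653. Its maltose libraries held 85, 104 and 105 reads, or levels of 6.24, 6.53 and 6.64. Its cellulose libraries lie above the range that could be recovered, so the difference of 9.38, a 665-fold change, was not tested. On the other solids the gene stood at 16.97 on wheat straw, 8.19 on pine and 13.39 on aspen.

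Gene 812358 had the second-largest difference and the largest that was tested. It held 3419, 3173 and 3333 reads in the cellulose libraries (levels of 11.80, 11.69 and 11.82), against 6, 6 and 7 reads in the maltose libraries (2.65, 2.65 and 2.92). The 3 cellulose libraries were close to each other and far above the 3 maltose libraries, which were near the lowest levels in the table. It rose by 9.03 ± 0.13 (SE, n = 3 each, limma adjusted p = 1.76e-16), with the spread estimated over all recovered libraries of the 5 media. With the cellulose and maltose libraries alone, limma gave an adjusted p of 3.39e-09. With any 1 of the 6 libraries left out the difference stayed between 8.98 and 9.12. The difference was 8.43 with each library centred on its median and 8.35 with a pseudocount of 5. The 521-fold change of the deposited difference understates the ratio of counts, because the maltose level is so low.

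The next genes by size of difference included others with few reads on maltose. The gene with the third-largest difference had cellulose levels of 12.27, 12.46 and 11.81, against maltose levels of 4.21, 3.92 and 3.62, and rose by 8.26 ± 0.21 (SE; limma adjusted p = 9.37e-14). The fourth had cellulose levels of 11.33, 11.47 and 12.07, against 2.65, 3.92 and 3.82 on maltose, and rose by 8.16 ± 0.29 (SE; limma adjusted p = 2.82e-12). Within each of these genes the media did not overlap, although the maltose libraries of the fourth differed by more than 1. The sixth-largest rested on 5, 9 and 10 maltose reads, with levels of 10.57, 10.73 and 10.08 on cellulose against 2.43, 3.16 and 3.38 on maltose, and rose by 7.47 ± 0.41 (SE; limma adjusted p = 4.47e-10). The fifth and the seventh stood at 13.83 and 15.49 on cellulose, against 6.12 and 8.10 on maltose, and were not tested.

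Among the lower genes, gene 165303 had the largest difference. It stood at 8.60 on cellulose, where its libraries held 382, 347 and 376 reads (8.64, 8.50 and 8.67), against 14.87 on maltose. The difference of -6.26, a 76.9-fold change, was not tested, since the maltose level was above the recoverable range. The 3 cellulose libraries lay within 0.2 of each other, and the levels on straw, pine and aspen were 7.82, 7.67 and 8.45.

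Gene 806311 followed, with cellulose levels of 5.73, 5.45 and 5.67 from 50, 41 and 46 reads, against a deposited level of 11.68 on maltose. Several read sets fitted that maltose level, so the difference of -6.06 was not tested. The third-largest negative difference belonged to a gene with 4.38, 3.64 and 4.50 on cellulose against 9.91, 10.09 and 10.22 on maltose, which fell by 5.90 ± 0.25 (SE, n = 3 each; limma adjusted p = 1.87e-11). The fifth-largest belonged to a gene with 6.58, 6.47 and 5.70 on cellulose against 11.14, 11.75 and 11.10 on maltose, which fell by 5.08 ± 0.23 (SE; limma adjusted p = 3.69e-11). Cellulose library c was the lowest of the 3 for this gene. This gene stood at 10.53 on pine, near its maltose level, and at 6.27 on straw and 7.23 on aspen. Another strongly lower gene, the ninth by size, stood at 7.65 on cellulose against 11.79 on maltose, and lower still on straw (2.99), pine (4.24) and aspen (2.83).

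**Figure D2:**
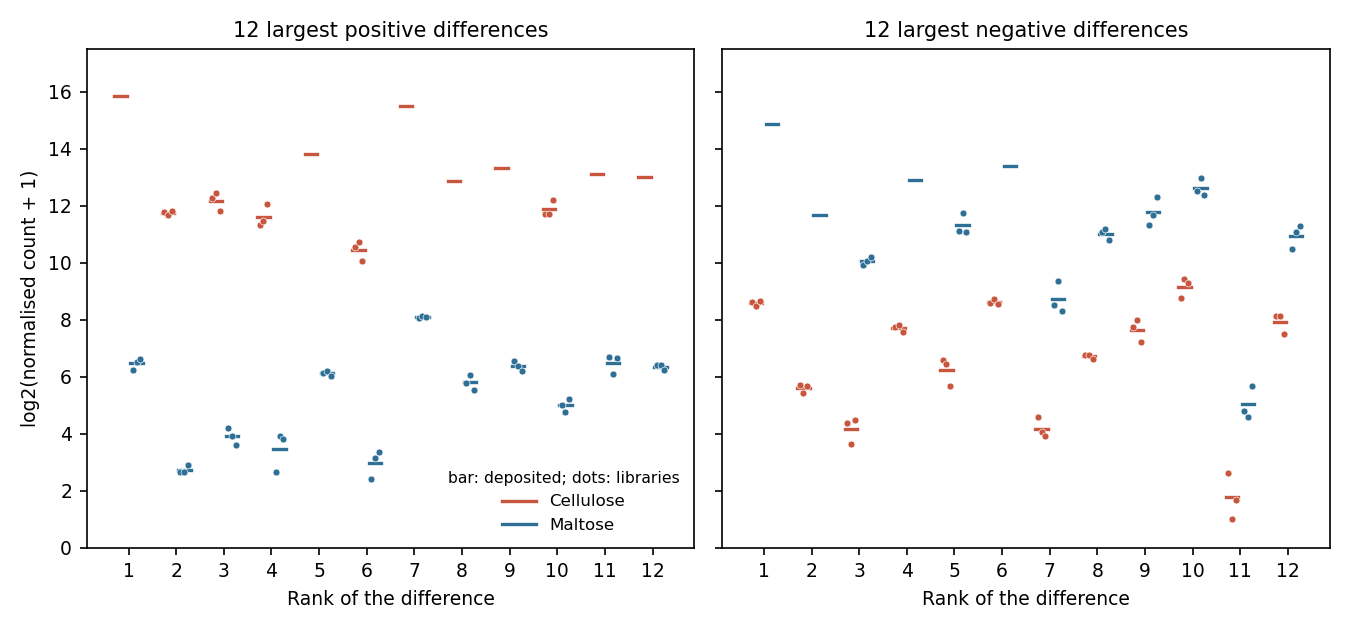
Levels, as log2(normalised count + 1), of the 12 genes with the largest positive and the 12 with the largest negative difference between cellulose and maltose, ordered by rank; bars are deposited levels and dots the recovered libraries, absent where reads could not be recovered uniquely. The plotted differences run down to 6.66 among the higher genes and to -3.02 among the lower ones. Dots of 1 medium are missing in 7 of the higher and 4 of the lower genes.

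Most genes stayed in the same broad range of levels on both media. With classes of under 5, 5 to 9, 9 to 13 and 13 or more, 186 genes were in a higher class on cellulose than on maltose, 683 in the same class and 80 in a lower one. The move from 5 to 9 on maltose into 9 to 13 on cellulose was the most frequent, with 106 genes, and 32 genes were in the lower of these classes on cellulose and the upper on maltose. Moves over more than 1 class were mostly upward on cellulose. There were 11 genes under 5 on maltose that reached 9 to 13 on cellulose, and 11 between 5 and 9 on maltose that reached 13 or more. In the other direction, 1 gene between 9 and 13 on maltose was under 5 on cellulose, and 2 genes at 13 or more on maltose were between 5 and 9.

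The excess of higher genes was not present at every level. Classed by the mean over the 5 media, the 114 genes under 5 had 20 higher by 1 or more on cellulose and 21 lower, with a median difference of -0.16. The 398 genes between 5 and 9 had 117 higher and 56 lower, with a median of 0.26. The 370 genes between 9 and 13 had 119 higher and 34 lower, with a median of 0.32, and held 40 of the 60 genes higher by 4 or more. The 67 genes at 13 or more had 12 higher and 5 lower, with a median of -0.03. Under 30 reads on the lower medium occurred among the largest tested rises, but not among the largest tested falls. Of the genes that rose, 19 had under 30 reads over the 3 maltose libraries, with differences from 1.36 to 9.03. Of those that fell, 15 had under 30 reads over the 3 cellulose libraries, with differences from -3.26 to -1.12.

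The genes at 13 or more on either medium, 114 in all, could not be tested but took 71.1% of the summed normalised counts of the listed genes on cellulose and 72.1% on maltose. By deposited level, 36 of these 114 stood higher on cellulose by 1 or more and 18 lower. Over all 949 listed genes, 268 stood higher (28.2%) and 116 lower (12.2%). The median difference of the 114 genes was 0.04. The 62 genes at 13 or more on both media differed little, from -1.94 to 2.33, with 7 higher and 5 lower by 1 or more. The next 2 sets were split by the level of 13 itself, which fixes their direction, so that only the sizes are informative. The 33 genes at 13 or more on cellulose alone had a median level of 13.79 on cellulose, 12.98 on straw, 11.72 on pine, 12.64 on aspen and 10.62 on maltose. Their differences ran from 0.31 to 9.38 with a median of 4.01, and 17 were 4 or more. The 19 genes at 13 or more on maltose alone had differences from -6.26 to -0.45 with a median of -1.10, and 2 were -4 or lower. The nearest genes around the limit of 13 stood at 13.01 and 12.98 on cellulose and at 13.04 and 12.99 on maltose.

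**Figure D3:**
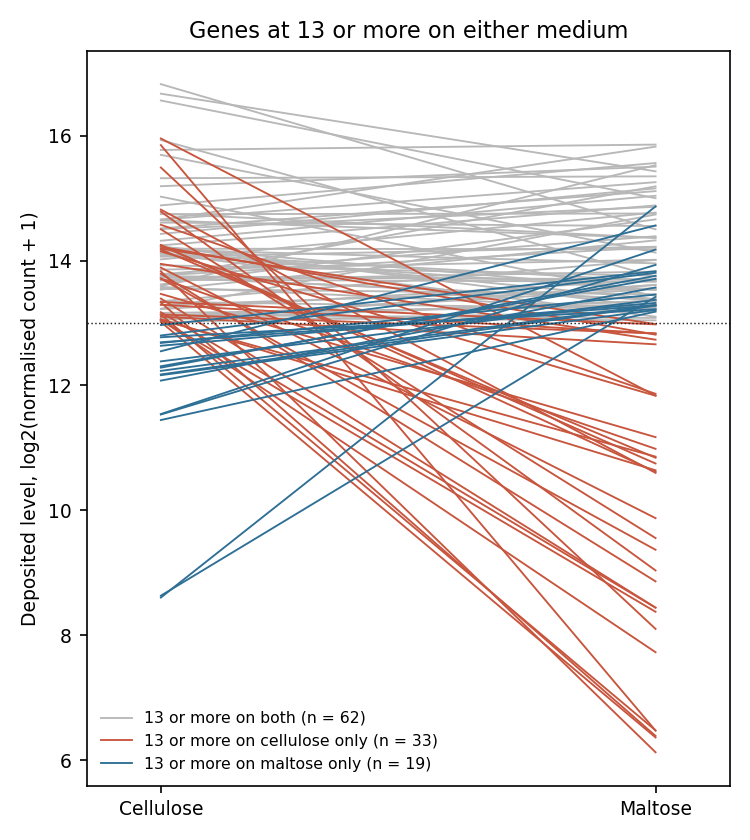
Deposited level, as log2(normalised count + 1), on cellulose (left) and maltose (right) of the 114 genes at 13 or more on either medium, 1 line per gene; the dotted line marks 13. Of the 33 genes at 13 or more on cellulose only, 22 are at 9 to 13 and 11 at 5 to 9 on maltose, down to 6.12, and of the 19 at 13 or more on maltose only, 17 are at 9 to 13 and 2 at 5 to 9 on cellulose.

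The genes that took the largest shares of the counts differed in part between the media. Each list of highest genes was chosen on 1 medium and so takes more of the counts there by construction. The 10 genes with the highest levels on cellulose, at 15.32 to 16.83 there and 6.47 to 15.86 on maltose, took 23.4% of the summed normalised counts of the listed genes on cellulose and 10.3% on maltose. They took 14.0% on straw, 7.08% on pine and 12.7% on aspen. Of these 10, 8 stood higher on cellulose by 1 or more and 2 were within 1. The highest of them stood at 16.83 on cellulose and 14.50 on maltose, and alone took 3.89% of the counts on cellulose against 1.00% on maltose. The 10 highest on maltose took 12.3% on cellulose and 19.9% on maltose, and 3 genes were in both lists. Of these 10, 1 stood higher on cellulose by 1 or more, 3 lower and 6 within 1. Over longer lists, the 50 highest on cellulose took 52.0% there and 39.7% on maltose. The 50 highest on maltose took 40.1% on cellulose and 54.7% on maltose. The 60 genes higher by 4 or more took 16.7% of the counts on cellulose and 0.577% on maltose. The 116 genes lower by 1 or more took 5.34% on cellulose and 22.2% on maltose. These sums are of deposited levels turned back into counts, and gave 2988689 on cellulose and 2308166 on maltose.

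Other genes kept their level. Of the listed genes, 351 were within 0.5 either way (37.0%), with a median level of 8.75 on cellulose and 8.81 on maltose, and 565 were within 1 (59.5%). Of the 305 tested genes within 0.5, 180 had overlapping libraries. Gene 826215, the highest on maltose, stood at 15.77 on cellulose and 15.86 on maltose, a difference of -0.09, which became -0.84 with each medium centred on its median. On straw, pine and aspen it stood at 15.92, 15.61 and 15.79.

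The genes that differed between cellulose and maltose were also followed on the other solids. For the 268 genes higher on cellulose by 1 or more, the median level was 9.98 on cellulose, 10.26 on straw, 7.63 on pine, 9.50 on aspen and 7.03 on maltose. Single genes lay on both sides of these medians, with quartiles of 8.07 and 11.83 on cellulose, 8.13 and 12.33 on straw, 5.94 and 9.70 on pine, 7.37 and 11.33 on aspen and 5.46 and 8.52 on maltose. For the 60 genes higher by 4 or more the medians were 11.81 on cellulose, 12.49 on straw, 7.32 on pine, 10.17 on aspen and 6.39 on maltose. The medians over all listed genes were 8.86 on cellulose, 9.21 on straw, 8.11 on pine, 8.91 on aspen and 8.10 on maltose. The 116 genes lower by 1 or more stood at a median of 6.82 on cellulose, 7.66 on straw, 7.59 on pine, 7.27 on aspen and 8.77 on maltose. For the 12 lower by 3 or more, the medians were 7.19, 7.11, 7.35 and 7.20 on cellulose, straw, pine and aspen, and 11.50 on maltose. The genes were chosen on their cellulose and maltose levels, so these medians are a description and were not tested.

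**Figure D4:**
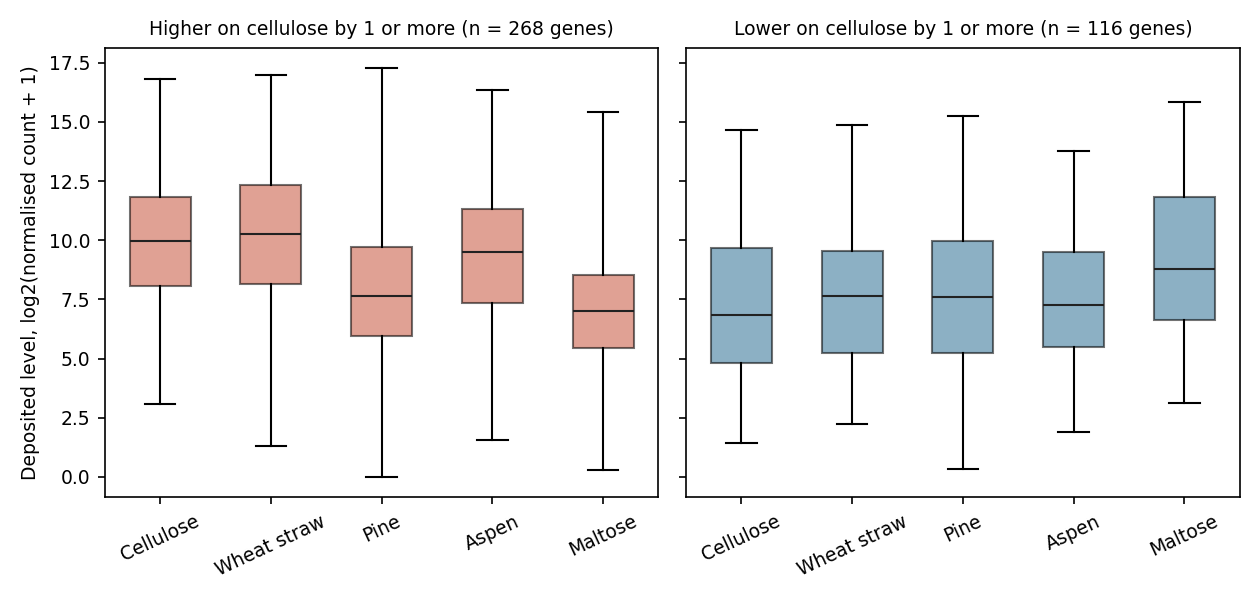
Deposited levels, as log2(normalised count + 1), on the 5 media of the 268 genes higher on cellulose than on maltose by 1 or more (left) and the 116 lower by 1 or more (right); boxes span the quartiles, lines mark medians and whiskers reach the lowest and highest gene. The higher genes have medians of 9.98 on cellulose, 7.63 on pine and 7.03 on maltose, and the lower ones have medians of 6.82 to 7.66 on the 4 solids and 8.77 on maltose.

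By deposited level, some genes were highest on cellulose. The deposited level on cellulose was at least 1 above every other medium for 41 of the 949 listed genes, of which 12 were at 13 or more. Their median levels were 11.53 on cellulose, 8.62 on straw, 6.81 on pine, 8.01 on aspen and 7.49 on maltose, and their differences from maltose ran from 1.24 to 7.70. The nearest other medium was straw for 18 of them, aspen for 12, maltose for 9 and pine for 2. The widest gap belonged to a gene at 12.69, 12.99 and 12.53 in the cellulose libraries, against 6.58, 7.12 and 7.18 in the maltose libraries, and at 5.79 on straw, 6.46 on pine and 6.62 on aspen. Its 3 cellulose libraries lay far above the maltose libraries and the other solids, and its differences were 6.95 from straw, 6.28 from pine, 6.12 from aspen and 5.78 from maltose, each with an SE of 0.18 to 0.20. The level on cellulose was at least 1 below every other medium for 10 genes, with medians of 4.90 on cellulose, 7.25 on straw, 6.83 on pine, 7.18 on aspen and 7.46 on maltose.

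Cellulose was also set against each other solid with the same limma fit and call. The straw comparison rested on 2 straw libraries and could include genes at 13 or more on straw. Those with pine and aspen used 3 libraries of each wood and left out genes at 13 or more on it, so the gene sets differ. Against straw, 74 genes were higher on cellulose (8.86% of 835 tested) and 184 lower (22%), but 125 and 126 with each library centred on its median. Against pine, 216 were higher (26.9% of 803) and 105 lower (13.1%), which centring turned round to 163 higher and 208 lower. Against aspen, 126 were higher (15.6% of 806) and 123 lower (15.3%), and 138 and 116 after centring. Quantile normalisation gave 101 higher and 122 lower against straw, 152 and 199 against pine, and 121 and 123 against aspen. These comparisons share the cellulose libraries with each other and with the maltose comparison, and the differences between their counts were not tested.

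Replicate libraries were close for most genes. Over 548 tested genes at 6 or more on both media, the median SD between libraries was 0.13 on cellulose and 0.12 on maltose. Over the tested genes, the root mean square difference between libraries of a medium was 0.32 to 0.48 on cellulose and 0.35 to 0.40 on maltose, against 1.76 to 1.92 between the media. A few genes varied far more. On cellulose, 14 of 649 genes at 6 or more had an SD over 0.6, and library c was the lowest of the 3 in 13 of them and the highest in 1. On maltose, 15 of 605 had an SD over 0.6, with library c highest in 14 and library a lowest in 13. Of the 14 genes on cellulose, 9 rose against maltose by limma's test. Of the 15 on maltose, 11 were tested, of which 7 rose and 1 fell. Over all tested genes, which had no such filter on level, 27.8% rose and 11.3% fell. The sets are therefore not directly comparable.

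**Figure D5:**
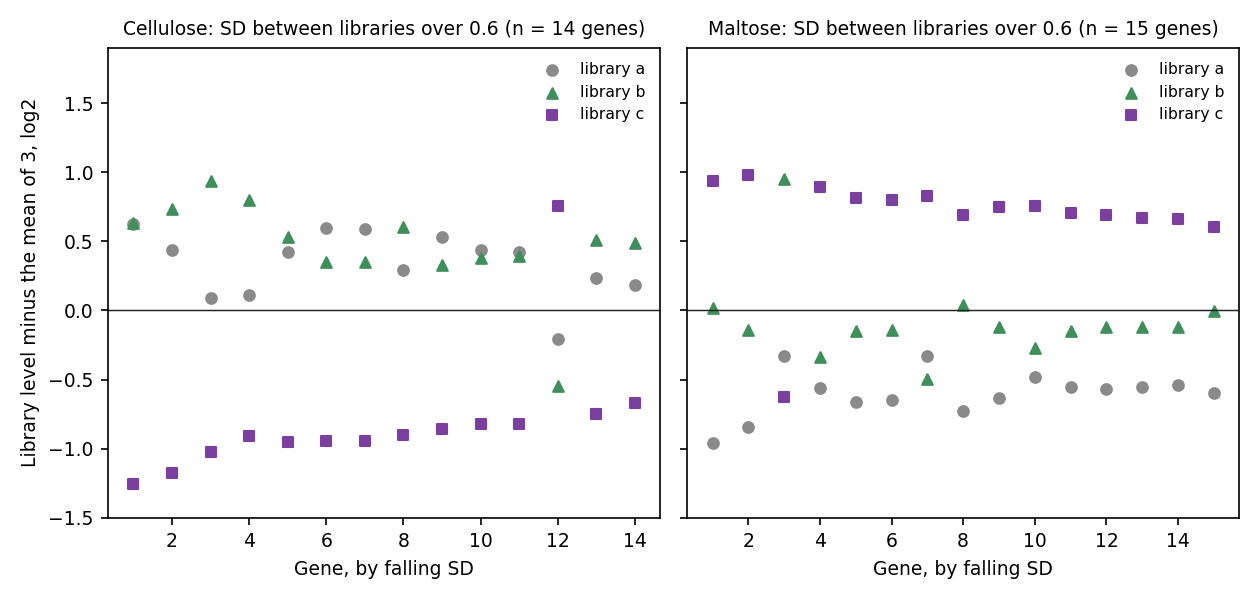
Level of each library minus the mean of the 3 libraries of its medium, on the log2 scale, for the 14 genes on cellulose (left) and the 15 on maltose (right) at a level of 6 or more with an SD between libraries over 0.6. Library c lies lowest in 13 of the 14 genes on cellulose and highest in 14 of the 15 on maltose.

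Leaving out cellulose library c gave 232 genes higher and 87 lower, and kept 221 of the 223 genes that rose and 83 of the 91 that fell. For 3 of the genes that rose, the fold change moved by over 1.5 times, with log2 differences of 2.68, 1.99 and 2.79 without it, against 2.09, 1.37 and 2.20 with it. The second of these had cellulose levels of 9.30, 9.30 and 7.42, against maltose levels of 6.93, 7.20 and 7.79, so that its libraries overlapped. Leaving out any of the other 5 libraries moved the fold change of no called gene by over 1.5 times. The part of single libraries in the results of these widely varying genes was not tested beyond these values.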

How the data were processed

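Per the labels' protocols, poly A RNA of mycelium was sequenced as paired-end reads. TopHat2, HTSeq and DESeq 1.5 appear in the submitters' processing notes, without their roles, and no genome build is named in the sources used here. The deposited table holds 1 value per gene and medium on a log2 scale, which the file headers call normalised read counts. How genes were selected and libraries combined is not stated.

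The deposited columns are pooled, so the test per library rested on decoding them. Each deposited log2 value was searched for sets of whole reads whose mean of log2(reads × factor + 1) met it. The tolerances were 6e-14 below level 10 and 1.6e-13 above, on the natural log of the product of (reads × factor + 1) over the libraries. These tolerances were set from the residuals after the data were seen. Of 40 low values tried on each of cellulose and maltose, 40 decoded with 3 libraries and 0 with 2. From level 9 to 11 each library was searched only within 6-fold of the libraries' geometric mean, and from 11 within 3-fold. Below 9 the limits were wider or absent. The spread of the recovered libraries is bounded by these limits. Of 1898 values of both media, 1678 gave exactly 1 set within them. This held for 1057 of 1057 values under 9 and 621 of 665 from 9 to 13, while 44 gave several sets and 176 at 13 or more were not searched. Of as many decoys shifted by 1e-06, 0 under 9 and 40 from 9 to 13 gave a set, so a few sets there can be wrong. Libraries average to the deposited value by construction, so a wrong set would alter a gene's SE but not its difference. For wheat straw, 40 of 40 low values decoded with 2 libraries and 0 with 3. The deposited straw levels therefore rest on 2 libraries, although 3 straw samples are labelled. No library was a duplicate of another: chi-square tests of replicate read counts gave 6.38 to 25.5 per degree of freedom, where sampling noise gives 1.

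The log2(reads × factor + 1) values, with a pseudocount of 1, of all recovered libraries of the 5 media, sharing 1 estimate of the spread per gene, were analysed with limma 3.58.1 (R 4.3.3), with an intensity trend and no covariates. Benjamini-Hochberg adjustment covered the 803 genes tested. Calls required both an absolute difference of 1 or more and an adjusted p under 0.05. The procedures were also run on simulated data, but the results of those runs are not given here. They are therefore no measure of how often the decoding is right at each level. This applies above all to the higher searched levels, where shifted decoys also gave sets. Gene numbers are printed for the 2 largest differences in each direction and for the highest gene of a medium where it differs by under 1. The members and lists were chosen with earlier results of these data known. Near-identical gene copies, overlapping genes and the strand setting of the counting could not be examined. Alternatives were other scalings, filters, pseudocounts and thresholds, and each library left out.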

Additional observations from a re-analysis of the deposited data

How the results depend on the processing

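Scaling changed the balance of higher and lower genes most. By deposited level, centring each medium on its median gave 173 higher and 306 lower, against 268 and 116 as deposited, and quantile normalisation gave 250 lower. Among tested genes, centring gave 209 lower and quantile normalisation 180 lower, against 91. A threshold of 2 gave 154 higher and 34 lower by deposited level, and 121 and 27 by limma. Without a fold threshold limma gave 356 and 209, and with genes under 9 on both media alone, 98 and 59 of 447. These counts fall by construction with fewer genes or a stricter threshold, and for the scalings the cause was not tested. With 1 library left out at a time, 218 to 232 genes were higher and 84 to 93 lower. A pseudocount of 5 gave 217 and 85, the 6 libraries alone 223 and 91, and no intensity trend 223 and 90. In all, 31 of 44 alternative counts stayed within 1.5 times the reported one. Many of these counts come from settings that alter the fit little, such as 1 library left out. They also include the 155 and 156 genes called higher after median centring and quantile normalisation, against 223, where lower genes outnumbered higher ones. The tally is therefore no measure of how steady that balance is. No paired analysis was possible because the recovered libraries carry no replicate numbers. Depth limits genes with few reads, and the decoding limits the genes at 13 or more, which have no error.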
